A study of Homo sapiens with 6 samples.

Results

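The interferon factors described here are 8 genes of the interferon and JAK-STAT pathways, *IRF2*, *IRF3*, *IRF8*, *IRF9*, *STAT2*, *STAT3*, *JAK1* and *HERC5*, chosen by name and taken at every probeset that the platform annotation assigns to 1 of them alone. Of the 16569 deposited probesets, 8 met this rule, and they cover 6 of the 8 genes. *STAT3* had 3 probesets, and *IRF3*, *IRF8*, *IRF9*, *JAK1* and *HERC5* had 1 each. *IRF2* and *STAT2* had none and are not analysed here. Expression was measured on Affymetrix arrays in HEK293T cells, a human embryonic kidney line with the SV40 large T antigen, 48 hours after transient transfection with a plasmid that carries the coding region of *USF1* (3 USF1 arrays) or with the same vector left empty (3 Empty vector arrays). Both groups therefore share the cell line, the vector and the transfection, and the comparison asks which transcripts differ, directly or through other genes, when the E-box binding factor *USF1* is over-expressed. All cells came from 1 line, which makes *USF1* protein itself, and separate transfections behind the arrays of a group are not stated in the sources used here, so p-values measure only their spread, which may be technical.

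Type I interferons bind the receptor pair *IFNAR1* and *IFNAR2*, whose attached kinases, *JAK1* among them, phosphorylate STAT proteins. *STAT2* and *IRF9* then act within the complex ISGF3, which binds the interferon-stimulated response element (ISRE) of many antiviral genes, while STAT dimers such as those of *STAT3* bind the gamma-activated site (GAS). *IRF3* acts upstream of this loop, as the factor that turns on interferon genes after virus sensing. *IRF8* is best known from myeloid and B cells, and *HERC5* is a ligase that attaches the ubiquitin-like protein ISG15 to other proteins in interferon-treated cells.

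Of the 8 probesets, that of *HERC5* was higher and that of *IRF9* was lower in USF1 cells, and these 2 calls are the reason for showing the upstream sequence of both genes. The stretches are the bases before the start of the gene in RefSeq (GRCh38.p14), each 250 bases long and read 5′ to 3′ on the plus strand, on which both genes lie. That of *HERC5* is chr4:88456869-88457118 and that of *IRF9* is chr14:24161015-24161264. Capitals mark matches to 3 motifs, namely the E-box CACGTG known as the binding sequence of USF1, an ISRE core (GAAANN followed directly by GAAA) and a GAS core (TTCNNNGAA), each searched on both strands, with N for any base. Neither CACGTG nor the 2 cores contain each other, but matches of 1 core can overlap along the sequence, as 2 of *HERC5* do.
HERC5: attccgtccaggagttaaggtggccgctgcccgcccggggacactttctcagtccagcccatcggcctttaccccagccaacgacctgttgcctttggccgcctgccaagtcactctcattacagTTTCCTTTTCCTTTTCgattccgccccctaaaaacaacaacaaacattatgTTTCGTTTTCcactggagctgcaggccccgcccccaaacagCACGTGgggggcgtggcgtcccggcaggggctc
IRF9: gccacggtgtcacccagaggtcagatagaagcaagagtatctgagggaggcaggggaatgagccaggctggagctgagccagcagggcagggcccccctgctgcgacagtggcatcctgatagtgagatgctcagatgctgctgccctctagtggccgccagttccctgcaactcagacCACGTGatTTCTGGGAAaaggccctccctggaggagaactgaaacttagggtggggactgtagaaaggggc

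Both stretches held 1 E-box, at bases 33 to 28 before the start in *HERC5* and at bases 71 to 66 before the start in *IRF9*. The *HERC5* stretch also held 3 matches to the ISRE core on the minus strand, of which 2 overlapped, at 125 to 116 and 119 to 110 bases before the start, and the third lay at 74 to 65. In *IRF9* a GAS core stood close to the E-box, at 63 to 55 bases before the start. The table of upstream sequences holds a stretch that ends at the start of the gene for 5 of the 8 genes, and those of *STAT2*, *STAT3* and *JAK1* had no match to the 3 motifs. For *IRF8* it holds 2 stretches at starts inside the gene, which were not used. For *JAK1* it holds 3 stretches, and only the 1 at the start of the gene was searched. Over all 35116 stretches of this length in the table, which has several starts for some genes, 6.34% held the E-box, 3.02% the ISRE core and 6.57% the GAS core. A match describes the letters and not a bound site, and binding was not measured in these cells.

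**Figure D1:**
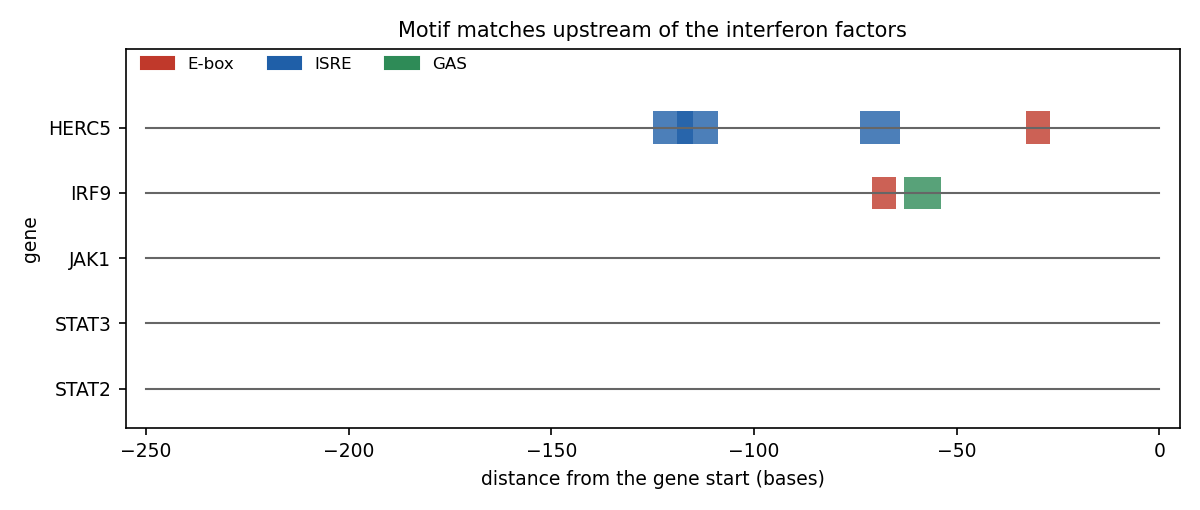
Matches to the E-box (red), ISRE core (blue) and GAS core (green) in the 250 bases before the start of the gene, with the distance from that start in bases on the horizontal axis and 1 line per gene. *HERC5* has an E-box and 3 ISRE matches, 2 of them overlapping, *IRF9* has an E-box and a GAS match, and the other 3 lines carry none.

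Values are in log2 units, as RMA gives them, so a difference of 1 is a 2-fold change. Empty vector replicate 1 stood apart from the other Empty vector arrays, the SD over all probesets of its difference from each being 0.336, against 0.182 between replicates 2 and 3. A signal ratio of actin probes at the 5′ and 3′ ends, which falls with RNA degradation, was -0.681 to -0.493 (log2) in USF1 arrays, against -1.34, -1.04 and -0.52 in Empty vector replicates 1, 2 and 3. For *GAPDH* it was -0.345 to -0.322 in USF1 arrays, against -0.58, -0.32 and -0.26 in Empty vector replicates 1, 2 and 3, so that only replicate 1 lay below the USF1 arrays in both. The 1 probeset of *USF1* lay at 4.68 to 4.94 in USF1 arrays and 4.37 to 5.14 in Empty vector arrays, and no source used here places its probes inside the coding region, so it gives no check of the plasmid transcript. The study reported over-expression of the USF1 protein by western blot. Of 12 listed markers of HEK293 cells, 6 had a probeset. Their mean log2 value was 7.77 to 7.86 in USF1 arrays and 7.74 to 7.91 in Empty vector arrays. Probesets absent in most arrays had been dropped before deposit, so a measured marker gives no check of the line. Of the 6, 4 were higher and 2 lower in USF1 cells: *INA* (-0.39, SE 0.08) and *EYA1* (-0.41, SE 0.08) were called lower, *CRABP2* (0.41, SE 0.13) did not pass, and *NEFL* was called higher at 2 of its 3 probesets (0.38 and 0.41). The call of *INA* was lost in 4 of 6 fits without single arrays and that of *EYA1* in 3 (both without USF1 replicate 1, USF1 replicate 3 or Empty vector replicate 2, and *INA* also without Empty vector replicate 3). The calls of *NEFL* were not tested in this way. The 15 listed markers of blood cells, *PTPRC* and *SPI1* among them, had no assigned probeset and are not analysed here.

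*HERC5* was higher in cells that over-expressed *USF1*. Its probeset (219863_at) had log2 values of 7.36, 7.25 and 7.37 in USF1 replicates 1, 2 and 3, against 6.49, 6.30 and 6.36 in Empty vector replicates 1, 2 and 3. The groups did not overlap, and the lowest USF1 array lay 0.76 above the highest Empty vector array. USF1 cells averaged 7.33 ± 0.07 and Empty vector cells 6.38 ± 0.10 (SD, n = 3 arrays each), a log2 difference of 0.95 (SE 0.09, 95% interval 0.74 to 1.15), or 1.93-fold, with a limma adjusted p of 0.00151. Its size was past that of 99.4% of all probesets. Without any 1 of the 6 arrays the difference stayed between 0.91 and 1.00, with adjusted p-values of 0.000375 to 0.0161 from limma. Empty vector replicate 3 had 6.36, between the other Empty vector arrays. Its actin value lay within the range of USF1 arrays and its *GAPDH* value above that range. The part of RNA quality in the size of the rise was not tested. With the methods' t-test (unequal variances) in place of limma, *HERC5* had an unadjusted p of 0.000267. It was not called after adjustment, which left 1 of all probesets.

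*IRF9*, the DNA-binding subunit of ISGF3, was lower in USF1 cells. Its probeset (203882_at) had log2 values of 4.89, 5.06 and 5.12 in USF1 replicates 1, 2 and 3, against 5.86, 5.41 and 5.44 in Empty vector replicates 1, 2 and 3. The groups did not overlap, but the gap was 0.29, and the spread of the Empty vector arrays rested on replicate 1, the highest of them. USF1 cells averaged 5.02 ± 0.12 and Empty vector cells 5.57 ± 0.25 (SD, n = 3 arrays each), a log2 difference of -0.55 (SE 0.13, 95% interval -0.86 to -0.24), with a limma adjusted p of 0.0358. The call was lost in 10 of 15 alternatives. The sign held in each, but as the groups did not overlap, leaving out or weighting arrays could not turn it. The adjusted p-value from limma was 0.126, 0.0598 and 0.102 without USF1 replicates 1, 2 and 3, 0.0639 and 0.0534 without Empty vector replicates 2 and 3, 0.0590 once arrays were centred on their medians and 0.0553 after a further quantile normalization. Without Empty vector replicate 1 the gene was called, at a smaller difference of -0.40 (limma adjusted p = 0.0341). Empty vector replicate 3, with an actin value within the range of USF1 arrays, had 5.44, and the part of RNA quality in the size of the fall was not tested.

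**Figure D2:**
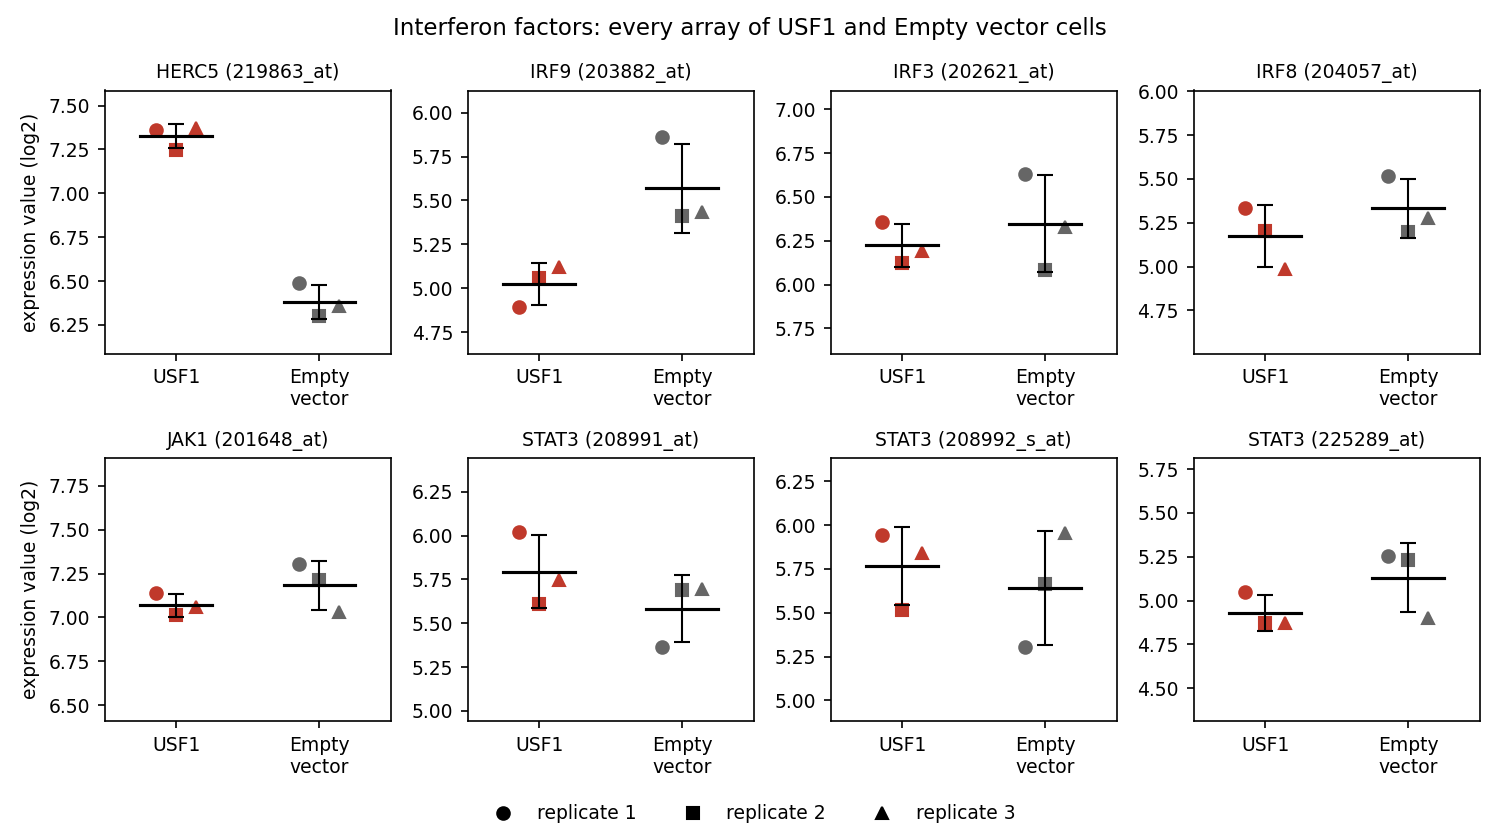
RMA expression values (log2, vertical axis, each panel spanning the same 1.5 units) of the 8 probesets in every array, with USF1 arrays in red at the left and Empty vector arrays in grey at the right, marker shapes for the replicates, and the mean (long bar) and SD (error bar) of 3 arrays. Only in the panels of *HERC5* and *IRF9* do the arrays of the groups not overlap.

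Over all 16569 probesets, limma called 4.32% higher and 7.6% lower in USF1 cells (adjusted p under 0.05), 11.9% in all. Among the 8 probesets described here 1 was called higher and 1 lower, numbers too small to set against that background. The arrays of the groups did not overlap in 2 of the 8, against 36.1% of all probesets. The median log2 difference was -0.12 over the 8 probesets and -0.06 over all probesets, and centring moved every difference upward by 0.07. The split of all calls between higher and lower was 715 to 1259 with the deposited values, 1041 to 815 once arrays were centred on their medians, and 976 to 959 after a further quantile normalization, and with either scaling *HERC5* was called (limma adjusted p = 0.00107 and 0.00120) and *IRF9* was not.

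The other IRF genes did not pass the test. *IRF3*, the factor that virus sensing activates, had log2 values of 6.36, 6.12 and 6.19 in USF1 arrays and 6.63, 6.08 and 6.33 in Empty vector arrays. The groups overlapped, as Empty vector replicate 2 lay below all USF1 arrays and replicate 1 above them. The difference was -0.12 (SE 0.14, 95% interval -0.45 to 0.20, limma adjusted p = 0.584), and it was 0.02 without Empty vector replicate 1, so no direction can be given. *IRF8*, of myeloid and B cells, had values of 5.34, 5.20 and 4.99 in USF1 arrays and 5.52, 5.20 and 5.28 in Empty vector arrays. USF1 replicate 3 was the lowest of the 6 and the other arrays overlapped, with a difference of -0.16 (SE 0.12, 95% interval -0.44 to 0.12, limma adjusted p = 0.419).

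*JAK1*, the kinase shared by the type I and type II interferon receptors and by receptors of the IL-6 family, had log2 values of 7.14, 7.01 and 7.06 in USF1 arrays and 7.31, 7.21 and 7.03 in Empty vector arrays. Empty vector replicate 3 lay within the range of the USF1 arrays. The difference was -0.11 (SE 0.10, 95% interval -0.34 to 0.11, limma adjusted p = 0.468).

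*STAT3*, the STAT of IL-6 type cytokines, was read by 3 probesets that did not share a sign. The probeset 208991_at had log2 values of 6.02, 5.61 and 5.75 in USF1 arrays and 5.36, 5.69 and 5.70 in Empty vector arrays. The probeset 208992_s_at had 5.94, 5.52 and 5.84 in USF1 arrays and 5.31, 5.66 and 5.96 in Empty vector arrays. In both, Empty vector replicate 1 was the lowest of the 6 arrays and USF1 replicate 2 the lowest of its group. Their differences were 0.21 (SE 0.14, 95% interval -0.10 to 0.52) and 0.12 (SE 0.17, 95% interval -0.27 to 0.52), and without Empty vector replicate 1 they were 0.10 and -0.04. The probeset 225289_at had 5.05, 4.87 and 4.87 in USF1 arrays and 5.26, 5.23 and 4.90 in Empty vector arrays, a difference of -0.20 (SE 0.12, 95% interval -0.47 to 0.07). Here Empty vector replicate 1 was the highest array, and USF1 replicates 2 and 3 held the same value to the last deposited digit, as they did in 17 of all probesets (7 to 21 over the pairs of arrays). None of the 3 passed the test (adjusted p-values = 0.326, 0.663 and 0.277 from limma), and no source used here places their probes along the transcript.

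**Figure D3:**
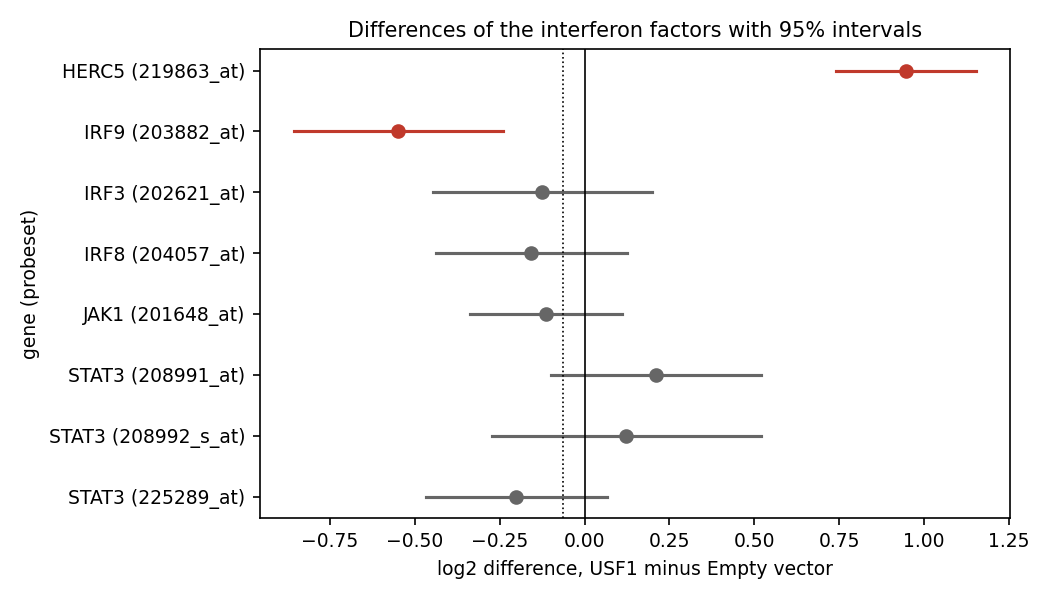
Log2 difference, USF1 minus Empty vector (horizontal axis) and its 95% interval (bar) for each probeset (vertical axis), in red where limma called it (adjusted p under 0.05) and with the median of all probesets as a dotted line at -0.06. The interval of *HERC5* lies wholly right of 0 and that of *IRF9* wholly left of it, and the 6 other intervals include 0.

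The genes around these factors were taken from lists of the pathway, each gene at its probeset with the highest mean. Beside the 8 genes the lists name 172, of which 81 had a probeset, and 3 of the 81 rose and 5 fell (3.7% and 6.17%, against 5.18% and 8.89% of all 9586 named genes taken the same way). Their median log2 difference was -0.05, against -0.08 over those named genes. At an unadjusted p-value under 0.05, limma passed 10.6% of all named genes as higher and 23.9% as lower, the shares that the unadjusted counts of the lists stand against. At the cell surface, 10 of 14 listed receptors were measured, and 1 rose and 2 fell. *IL6R*, the receptor chain that binds IL-6 upstream of *STAT3*, had log2 values of 5.81, 5.57 and 5.79 in USF1 arrays and 4.46, 4.40 and 4.36 in Empty vector arrays. It rose by 1.31 (SE 0.10, limma adjusted p = 0.000422), its groups did not overlap, and it was called without each array in turn. *IFNAR1*, a chain of the type I interferon receptor, fell by 0.74 (SE 0.13, limma adjusted p = 0.0143) at 236478_at, while its 2 other probesets did not pass (-0.26 each), and its call was lost without USF1 replicate 1 or USF1 replicate 3. *IL10RB*, a chain of the receptors of IL-10 and of type III interferons, fell by 0.33 (SE 0.08, limma adjusted p = 0.0392), but lost its call without any 1 of the 6 arrays and after centring (limma adjusted p = 0.0715).

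The 21 listed interferon genes had no assigned probeset and are not analysed here. The other Janus kinases and STATs had 3 of 8 genes measured and none called, and *STAT5B* had the smallest adjusted p-value among them (-0.39, SE 0.15, limma adjusted p = 0.129, 1 of 3 lower at an unadjusted p-value under 0.05). Of the other IRFs and IRF2-binding proteins 4 of 8 were measured and none called, with *IRF2BP1* at -0.37 (SE 0.13, limma adjusted p = 0.0916) and 2 of 4 lower at an unadjusted p-value under 0.05. Among the sensors and kinases that lead to *IRF3*, 11 of 25 were measured and none passed at the probeset with the highest mean (1 higher and 3 lower at an unadjusted p-value under 0.05). *TRAF6*, an adaptor ligase of Toll-like receptors, had the smallest adjusted p-value (-0.45, SE 0.16, limma adjusted p = 0.0899). *MAVS*, the adaptor of the RNA sensors, was higher at each of its 4 probesets, and 1 of these, 220305_at, passed (0.49, limma adjusted p = 0.0317), a call lost without USF1 replicate 1, USF1 replicate 3, Empty vector replicate 2 or Empty vector replicate 3. Its brightest probeset, 226495_at, had 0.33 (SE 0.12, limma adjusted p = 0.110). The means of 231829_at and 229741_at were dim, at percentiles 0.06 and 6.24 of all probesets. At 231829_at the difference of 0.79 was 0.39 without Empty vector replicate 1. *TBK1*, the kinase of *IRF3*, had a difference of -0.07 (SE 0.08).

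Of 62 listed interferon-stimulated genes 26 were measured, 2 rose and 2 fell, and without *HERC5* and *IRF9* themselves 1 of 24 rose and 1 fell. The median log2 difference was 0.04 for the 26 and for the 24, against -0.08 over all named genes. Of the 24, 2 were higher and 5 lower at an unadjusted p-value under 0.05. *PARP9*, an ADP-ribosyltransferase partner of the ubiquitin ligase *DTX3L*, had log2 values of 4.996, 4.84 and 4.88 in USF1 arrays and 4.20, 4.12 and 3.85 in Empty vector arrays. Its groups did not overlap, it rose by 0.85 (SE 0.11, limma adjusted p = 0.00507), and it was called without each array in turn, whereas *DTX3L* had a difference of -0.24 (SE 0.14, limma adjusted p = 0.279). *TRIM21*, a cytosolic antibody receptor and ubiquitin ligase, fell by 0.50 (SE 0.09, limma adjusted p = 0.0151), a call lost without USF1 replicate 1, USF1 replicate 3 or Empty vector replicate 2. *IFIT5*, an RNA-binding member of the IFIT family, had -0.43 (SE 0.12, limma adjusted p = 0.0537) at its brighter probeset and passed at the other, 203596_s_at (-0.57, SE 0.15, limma adjusted p = 0.0449). There the gap between the groups was 0.05, and whether the call holds without single arrays was not tested. Several other genes that interferon induces in many cells did not pass: *ISG15* 0.15 (SE 0.16), *IFIT1* 0.01 (SE 0.14), *IFIT2* 0.10 (SE 0.13), *IFIT3* 0.07 (SE 0.10) and *IFI6* 0.01 (SE 0.16), with limma adjusted p-values of 0.578 to 0.978.

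*HERC5* was the 1 called gene of the ISG15 conjugation list, of which 9 of 10 genes were measured. Beside it, *ISG15* itself is the modifier, *UBE2L6* (0.09, SE 0.11) its conjugating enzyme and *USP18* (0.10, SE 0.11) the protease that removes it, and none of the 3 passed. *HERC6*, the closest relative of *HERC5*, had log2 values of 5.28, 4.74 and 4.88 in USF1 arrays and 4.85, 4.37 and 4.35 in Empty vector arrays. The groups overlapped, and its difference of 0.44 (SE 0.18, limma adjusted p = 0.130) did not pass. Of the HERC family beside *HERC5*, 4 of 5 were measured and none was called, with *HERC4* at -0.26 (SE 0.09, limma adjusted p = 0.0903), *HERC1* at -0.37 (SE 0.14) and *HERC2* at -0.02 (SE 0.12). At an unadjusted p-value under 0.05, 1 of these 4 was higher and 2 were lower.

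Among genes that restrain JAK-STAT signalling, 14 of 18 were measured and 1 fell. *PIAS3*, an inhibitor of *STAT3*, fell by 0.48 (SE 0.11, limma adjusted p = 0.0252), with values of 5.07, 5.13 and 4.96 in USF1 arrays and 5.66, 5.59 and 5.35 in Empty vector arrays. Its call was lost without USF1 replicate 1, USF1 replicate 3 or Empty vector replicate 2. *SOCS6*, of the suppressors of cytokine signalling, had a larger difference of -0.67 that did not pass (SE 0.19, limma adjusted p = 0.0536). Of 17 listed targets of *STAT3*, 11 were measured, and the kinase *PIM2* rose by 0.50 (SE 0.12, limma adjusted p = 0.0299) while the repressor *BCL6* fell by 0.39 (SE 0.09, limma adjusted p = 0.0257). Both calls depended on single arrays: that of *PIM2* was kept only without Empty vector replicate 1, and that of *BCL6* only without USF1 replicate 2 or Empty vector replicate 1. The early response genes *FOS* (0.24, SE 0.10) and *JUNB* (0.10, SE 0.085) did not pass.

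**Figure D4:**
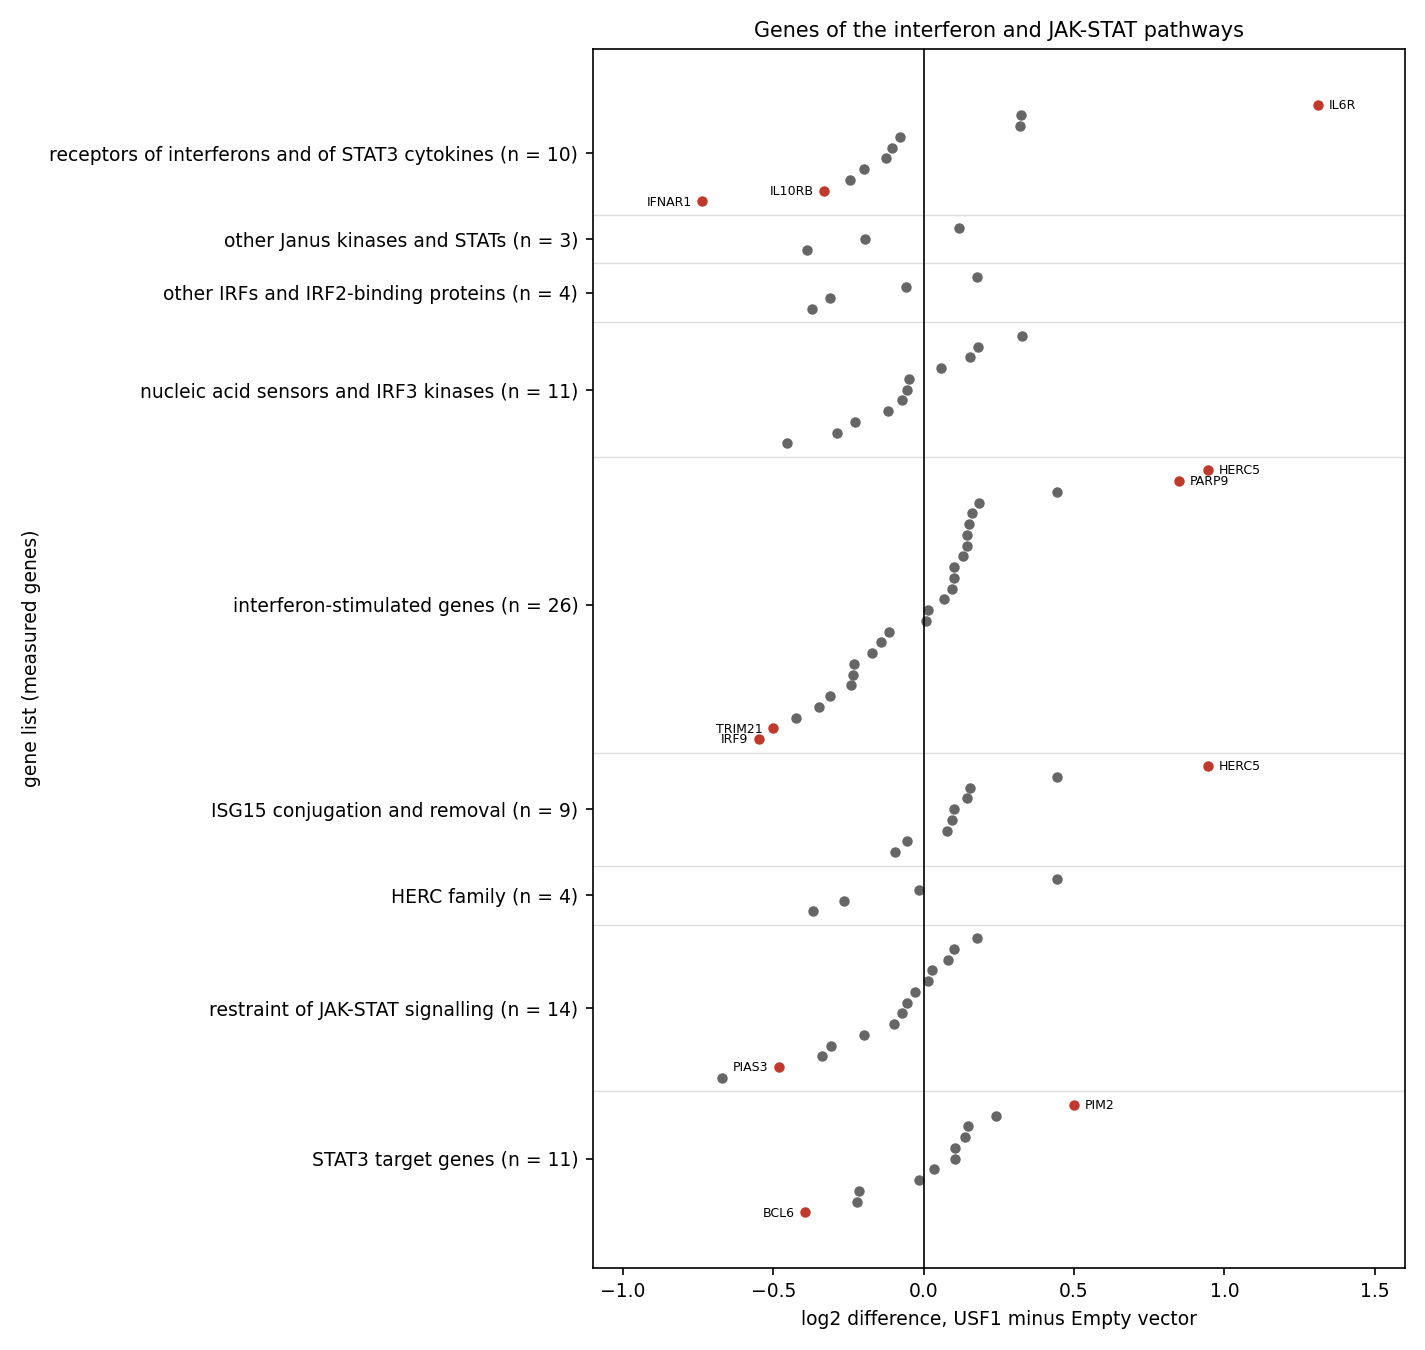
Log2 difference, USF1 minus Empty vector (horizontal axis), of each measured gene in 9 lists of the pathway (vertical axis, genes ordered by difference within a list), in red and named where called by limma (adjusted p under 0.05). *IL6R*, *HERC5* and *PARP9* are the called genes furthest to the right and *IFNAR1* the one furthest to the left, and most genes lie between -0.5 and 0.5.

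The genes whose values over the 6 arrays were most like those of *HERC5* were *ATP6V0C*, a subunit of the vacuolar proton pump (Pearson r = 0.999), and *ELL3*, an elongation factor (r = 0.999). For *IRF9* they were the Mediator subunit *MED30* (r = 0.997) and *ZNF839* (r = 0.995). With 6 arrays in 2 groups a gene that differs clearly between them gives a high value, and 843 probesets had r over 0.9 with *HERC5* and 699 with *IRF9*.

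**Figure D5:**
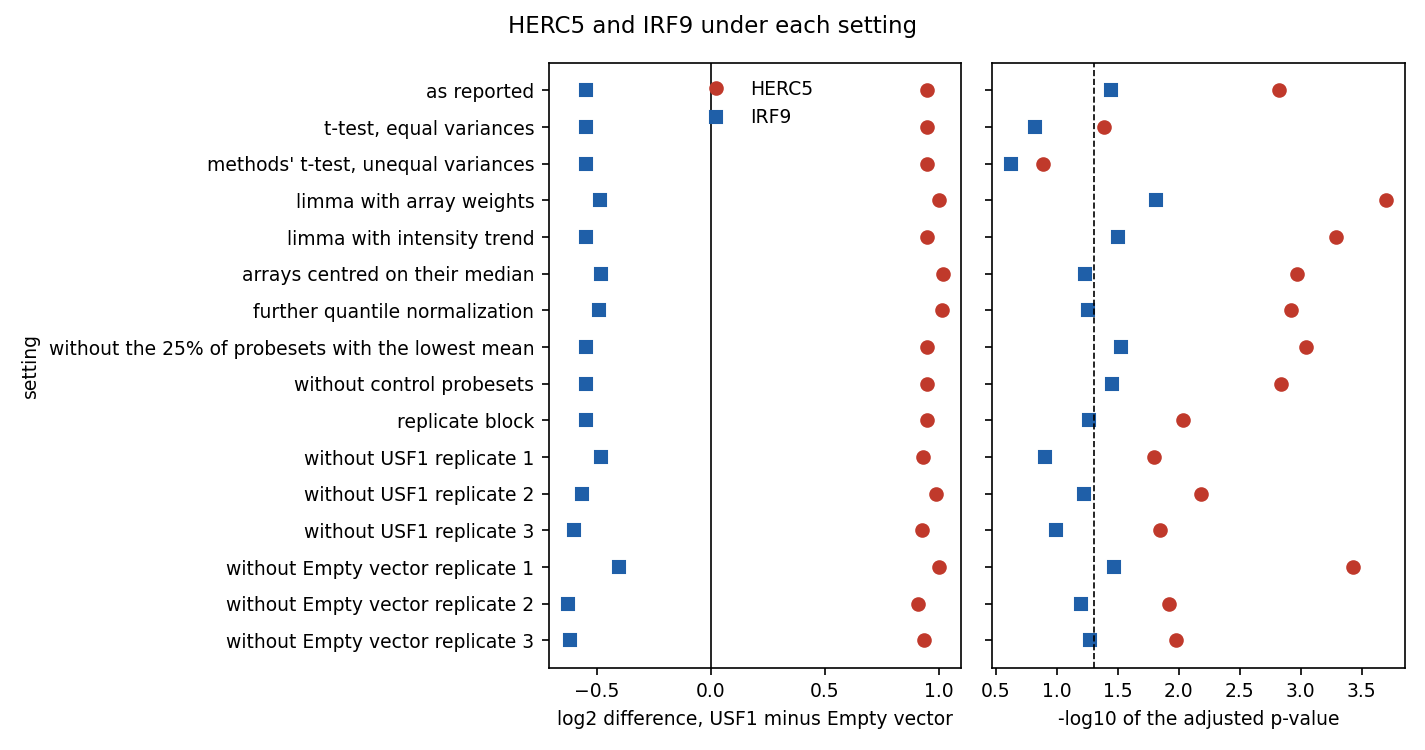
Log2 difference, USF1 minus Empty vector (left), and -log10 of its adjusted p-value (right, dashed line at an adjusted p-value of 0.05) of *HERC5* (red circles) and *IRF9* (blue squares) with the deposited values and limma (top) and under 15 other settings (vertical axis). *HERC5* stays right of the dashed line in 14 of the 15 and *IRF9* in 5.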

How the data were processed

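Expression was measured in HEK293T cells on 6 Affymetrix arrays, 3 per group, each mapped to its group and replicate by its title. The authors read the arrays in R 2.8.0 with justRMA (background subtraction, quantile normalization), masked probes that were nonspecific or missed their target, dropped probesets that kept few probes or were absent in most arrays, and applied the ComBat correction for batch. The table they deposited holds log2 values. No source used here names the batches, so the fit has no term for them, and its p-values take no account of that correction. Raw intensities were not used.

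Platform annotation named 1 gene for 15099 probesets, several for 570 and none for 900. Symbols were updated through Entrez IDs to GRCh38.p14. Upstream sequences came from RefSeq.

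The log2 difference was fitted over all 16569 probesets with lmFit and eBayes of limma 3.58.1 (R 4.3.3, prior of 4.53 degrees of freedom) without covariates, with Benjamini-Hochberg adjustment over all probesets and a threshold of 0.05. Alternatives were other tests, array weights, an intensity trend, centred or further normalized arrays, omitted dim or control probesets, a replicate block and each array left out. The procedure was tested on simulated data. The number of arrays limits the precision.

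The genes and lists were chosen with earlier results of these data known. Named beside the 8 genes were, per list, up to 4 called genes with the smallest adjusted p-values, or the gene with the smallest where none was called, and for *HERC5* and *IRF9* the 2 genes most correlated with each. Further genes named for their role were chosen after their values were seen.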

Additional observations from a re-analysis of the deposited data

How the results depend on the processing

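With a t-test at equal variances 4265 probesets passed an unadjusted p-value of 0.05, *HERC5* and *IRF9* among them, and after adjustment 160 passed, of the 8 probesets only *HERC5*. With the methods' t-test, of unequal variances, 3419 passed unadjusted, again with both genes, and after adjustment 1 probeset passed, 0 of the 8 (*HERC5* adjusted p = 0.130). Array weights gave 3688 called probesets. Leaving out single arrays gave 369 to 2222 called probesets and 1 to 2 of the 8: 466 and 369 probesets without USF1 replicates 1 and 3, 574 and 1110 without Empty vector replicates 2 and 3. *IRF9* alone of the 2 lost its call after centring, after a further quantile normalization (1 of the 8 called with each) and with the replicate block. The replicate number as a block gave 2875 called probesets and 1 of the 8 (*IRF9* limma adjusted p = 0.0544). Deviations of same-numbered arrays correlated at 0.096, 0.25 and 0.13, and every array correlated best with its own number, a hint from the data and not the design, so the arrays were not treated as pairs. The difference of *IRF3* turned to 0.0047 with array weights and lay between -0.26 and 0.017 without single arrays, and that of *STAT3* at 208992_s_at between -0.044 and 0.28, both turning sign without Empty vector replicate 1. An intensity trend, omission of the dimmest 25% of probesets, and leaving out control probesets changed no call among the 8 probesets.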

Other observations

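The nearest protein-coding genes on either side of *HERC5* and *IRF9* were read after the values of both were seen. *HERC5* lies on chromosome 4 (88457119 to 88506163, GRCh38.p14), 14021 bases from *HERC6*. Beyond it *PPM1K*, a mitochondrial phosphatase, showed 0.07 (log2 difference at the brighter of 2 probesets, SE 0.08, limma adjusted p = 0.581), and the next genes on the other side, *PYURF*, *PIGY* and *HERC3*, are not analysed here. *IRF9* lies on chromosome 14 (24161265 to 24166565). Downstream of it, *REC8*, a meiotic cohesin subunit, had a difference of 0.09 (SE 0.11) and *IPO4*, an importin, of 0.11 (SE 0.14), and neither passed. On its other side *RNF31* and *PSME2* are not analysed here, and *EMC9*, of the membrane protein insertion complex, 19673 bases away, fell to a mean log2 value of 6.71 in USF1 cells, against 7.28 in Empty vector cells (difference -0.58, SE 0.11, limma adjusted p = 0.0177). Whether the call of *EMC9* holds without single arrays was not tested. Whether neighbours of *IRF9* differ together was not tested either.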
